A study of Mus musculus with 61 samples.

Results

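Collagens are the triple-helical proteins that build most of the extracellular matrix. Fibrillar chains assemble into the banded fibrils of mesenchyme, cartilage and bone, and type IV chains form the sheet-like network of basement membranes. Type VI chains form beaded filaments, the fibril-associated chains (FACITs) decorate the surface of fibrils, the multiplexins (types XV and XVIII) sit at basement membranes, and the transmembrane collagens are held in the plasma membrane. In the embryo, epithelia are lined by type IV collagen and laminin from early stages, whereas fibrillar collagens are laid down mostly by mesenchyme and by the sclerotome and notochord sheath.

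The genes described here are all those whose symbol reads Col, a number, a, and a number, and 44 of the 55052 genes in the expression table met this rule. They comprised 11 fibrillar, 6 basement membrane, 6 beaded filament, 9 FACIT, 2 multiplexin, 4 transmembrane and 4 network and anchoring chain genes, plus Col26a1 and Col28a1. Their mRNA levels were measured by poly(A) RNA-seq in stembryos, which are gastruloids grown from aggregated mouse embryonic stem (mES) cells that received a pulse of the Wnt agonist Chiron from 48 h to 72 h and then formed a structure like an elongating posterior axis. The study asked how deletions and insertions of CTCF-binding sites (CBS) in the HoxD cluster change the timing of Hoxd genes, and the collagens were no target of any of these changes. A wild-type (wt) time course covered 8 stages (72, 84, 96, 108, 120, 132, 144 and 168 h after aggregation) with 2 libraries each, and 10 further wt libraries were made at 96 h (4), 120 h (4) and 144 h (2).

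The 35 mutant libraries carried 8 alleles. Del(CBS1), Del(CBS2), Del(CBS1-2) and Del(d1-d4), the last of which lacks Hoxd1 to Hoxd4, were sampled at 96 h and 120 h. Ins(2xCBS-d4d8), an insertion of a cassette with a pair of CTCF sites, was sampled at the same stages, and Del(CBS4) at 120 h and 144 h. Del(CBS1-5) was sampled at 96, 120 and 144 h, and Del(sub-TAD1), which removes the neighbouring regulatory domain with Mtx2, at 96 h and 120 h. There were 2 libraries in each of these 17 groups, except for 3 in Del(sub-TAD1) at 96 h. The first 6 alleles were homozygous in CRISPR clones of the same 129/SVEV mES cells as the wild type, with Del(CBS1-2) made on Del(CBS1) cells. Del(CBS1-5) cells came from another source, since mutant mice supplied the blastocysts for them. The same holds for Del(sub-TAD1), where the mice also carried a fosmid transgene that supplied Mtx2. For both, the allele and the origin of the line cannot be told apart. Each library was made from pooled stembryos, so in these bulk samples fewer cells that make a collagen and less of its mRNA per cell cannot be told apart.

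Levels are given as FPKM, the number of sequenced fragments of a gene scaled to the length of its transcripts and to the size of the library. Depth, read from the size of the steps between low values, ranged from 15 to 39 M (mega) fragments, and its median was 24 M. The libraries fell into 2 sets by the mRNAs of the mitochondrial genome, whose mean level was 7.70 to 10.01 on the log2 scale in 28 libraries and 4.22 to 6.29 in the other 33. Each mutant group lay within 1 set, while the wt libraries of 96 h and 120 h fell into both, so each mutant group was compared with the wt libraries of its own stage and set. In Del(d1-d4), Hoxd1, Hoxd3 and Hoxd4 were listed at 0 FPKM in all 4 libraries, against 4.59 to 35.4 FPKM in the wt libraries of the same stages and set. Summed over 5 pluripotency genes (Pou5f1, Nanog, Zfp42, Esrrb and Dppa5a), the time course fell from a mean of 1306 at the first stage to 48.6 FPKM at the last, while the sum of 4 spinal cord genes went from 0.275 to 80.8 FPKM and that of 4 sclerotome and cartilage genes from 0.553 to 28.2 FPKM. These sums moved over the same stages as the collagens, and their part in the collagen changes was not tested.

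Collagen mRNA as a whole increased during the time course and its makeup turned over. Summed over the 44 genes, the level was 86.6 FPKM at 72 h, 188 FPKM at 96 h and 345 FPKM at 120 h, where it peaked, and 271 FPKM at 168 h (means of 2 libraries). At 72 h the multiplexins, nearly all Col18a1, made up 50.9% of it, the basement membrane chains 28.7% and the fibrillar chains 10.8%. By 96 h the basement membrane chains held the largest share with 42.6%, and by 168 h the fibrillar chains did with 39.7%, leaving 19.6% to the basement membrane chains and 24.0% to the multiplexins. The share of the transmembrane collagens had its highest mean at 84 h with 16.3% and was 2.17% by 168 h. Their summed level was highest at 96 h, with a mean of 27.2 FPKM from libraries at 15.6 and 38.9 FPKM, against 17.3 FPKM at 84 h.

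Of the 44 genes, 26 had a mean above 1 FPKM at some stage of the time course and 9 a mean above 10 FPKM. Col4a3, a chain of the mature kidney glomerulus, and Col10a1, the collagen of hypertrophic cartilage, were listed at 0 in all 61 libraries. A total of 30 genes reached a mean of 1 FPKM in at least 1 group and were tested. The 14 others were Col5a3, Col4a3, Col4a4, Col6a4, Col6a5, Col6a6, Col9a3, Col19a1, Col20a1, Col17a1, Col7a1, Col8a2, Col10a1 and Col28a1, and 13 of them stayed below 1 FPKM in every library. The exception was Col9a3, which was listed at 0 in 31 libraries and reached 1.45 FPKM in the others, and which overlaps Tcfl5. In limma fits over all 61 libraries and 17098 genes, 29 of the 30 tested collagens differed among the 8 stages at an adjusted p (Benjamini-Hochberg) below 0.05, as did 71.7% of all genes tested. A gene that reached the minimum only through its high stage had to differ, so this count describes the list and no more. The same holds for 4 of the 30 tested genes in the mutants, since Col5a2, Col6a1, Col6a3 and Col16a1 reached 1 FPKM in mutant groups alone, and their highest wt group means were 0.751, 0.789, 0.268 and 0.918 FPKM.

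**Figure D1:**
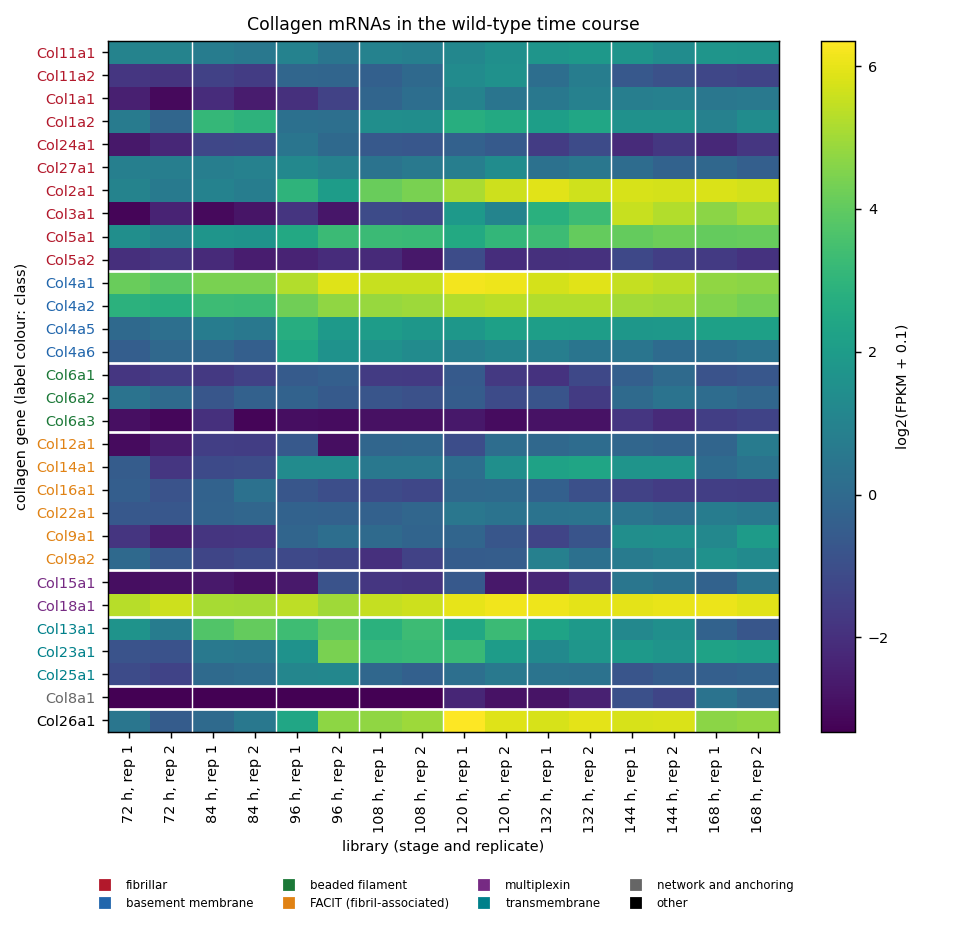
mRNA levels of the 30 tested collagens in the 16 wild-type time-course libraries, as log2(FPKM + 0.1), with a column for each library in order of stage and a row for each gene grouped by class. Col18a1 is high in every column, Col4a1, Col4a2, Col26a1 and Col2a1 become bright between 96 h and 120 h, and Col3a1 does so by 144 h.

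Between 72 h and 168 h, 23 of the 30 tested collagens rose and 3 fell, against 27.7% and 25.7% of all genes tested (53.4% in either direction). Their median log2 change was 1.34, and that of all genes was 0. A gene that passed the filter only through its level at 168 h had to rise, so these counts describe the list. Col8a1 had its highest group mean there, at 1.03 FPKM. By class, 7 of 10 fibrillar genes rose and 1 fell, all 4 basement membrane genes rose, 5 of 6 FACITs rose and 1 fell, both multiplexins rose, and 2 of 3 transmembrane genes rose and 1 fell. Of the 3 beaded filament genes tested, 1 rose. The 3 genes that fell were Col13a1, Col27a1 and Col16a1. All fold changes and log2 values here are differences of log2(FPKM + 0.1), a scale that understates the change of low genes.

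Among the fibrillar collagens, Col2a1 rose from 96 h onwards and Col3a1 from 120 h onwards. Col2a1, the main fibril collagen of cartilage and also made by the notochord, had mRNA levels of 1.88 and 1.45 FPKM at 72 h, 1.88 and 1.60 at 84 h, 7.83 and 4.02 at 96 h, 17.8 and 21.3 at 108 h, 35.0 and 48.5 at 120 h, 61.2 and 50.1 at 132 h, 54.9 and 52.5 at 144 h, and 55.6 and 51.7 FPKM at 168 h. The libraries of successive stages did not overlap from 84 h to 132 h, and after that they did. Its log2 change from 72 h to 168 h was 4.93 ± 0.21 (SE, adjusted p = 2.0e-19, limma), a 30.6-fold difference. Col3a1, which accompanies type I collagen in soft connective tissue and vessel walls, was at 0.00866 and 0.0935 FPKM at 72 h, 0.0176 and 0.0463 at 84 h, 0.179 and 0.0514 at 96 h, 0.359 and 0.331 at 108 h, 3.62 and 1.97 at 120 h, 6.99 and 9.77 at 132 h, 46.8 and 37.7 at 144 h, and 25.5 and 32.2 FPKM at 168 h. It was no higher than 0.359 FPKM in any library up to 108 h and rose in each of the next 3 steps, by log2 changes of 2.64 ± 0.43, 1.59 ± 0.43 and 2.33 ± 0.43 (adjusted p = 0.00011, 0.027 and 0.00069, limma). This was the largest change among the collagens, with a log2 difference of 7.63 ± 0.43 between 168 h and 72 h (adjusted p = 2.4e-16).

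The stretch of 200 bases upstream of the Col3a1 gene start (GRCm38.p6, RefSeq) is shown because this gene had the widest range of the list. It lies at chr1:45311338-45311537 on the plus strand, and capitals mark letters of the CCAAT box (CCAAT), the GC box (GGGCGG) or the TATA box (TATAAA), which were searched on both strands and do not overlap each other here. Such stretches hold the CCAAT box in 29.3%, the GC box in 31.0% and the TATA box in 9.96% of the 32851 promoters of the reference, and 35 of the 44 collagens had an entry there.
Col3a1: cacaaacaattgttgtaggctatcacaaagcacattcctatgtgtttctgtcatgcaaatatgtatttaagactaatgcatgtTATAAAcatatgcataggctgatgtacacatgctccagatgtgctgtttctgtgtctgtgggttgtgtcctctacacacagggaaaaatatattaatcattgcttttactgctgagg
The match begins 117 bases upstream of the start. It is a match of letters in this window and not a mapped site.

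Col5a1, a chain of the type V collagen that nucleates fibrils, followed an earlier course, with 2.63 and 1.97 FPKM at 72 h, 3.17 and 3.05 at 84 h, 5.61 and 9.66 at 96 h, 9.57 and 9.27 at 108 h, 5.84 and 8.30 at 120 h, 9.95 and 16.5 at 132 h, 16.9 and 18.6 at 144 h, and 16.7 and 17 FPKM at 168 h (log2 change from 72 h to 168 h 2.84 ± 0.29, adjusted p = 5.0e-10). Its partner chain Col5a2 stayed between 0.0554 and 0.376 FPKM in all 16 libraries and did not change between these stages by the test (log2 0.14 ± 0.59, adjusted p = 0.93). Col11a1, a chain of the cartilage type XI collagen, changed little. Its levels were 1.91 in both libraries at 72 h, 1.56 and 1.37 at 84 h, 1.87 and 1.24 at 96 h, 1.84 and 1.69 at 108 h, 2.13 and 2.71 at 120 h, 3.23 and 3.47 at 132 h, 3.14 and 2.49 at 144 h, and 3.25 and 3.10 FPKM at 168 h (log2 change 0.70 ± 0.13, adjusted p = 1.8e-05). Col11a2, another type XI chain, was transient: it rose by 1.64 ± 0.24 on the log2 scale from 108 h to 120 h, where it had 2.47 and 2.84 FPKM, and fell by 0.99 ± 0.24 and 1.27 ± 0.24 in the next 2 steps.

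The chains of type I collagen, the main fibril protein of bone and skin, were not expressed together at the early stages. Col1a2 had 1.52 and 0.812 FPKM at 72 h, 8.63 and 7.47 at 84 h, 1.1 and 1.06 at 96 h, 2.62 and 2.59 at 108 h, 6.68 and 5.73 at 120 h, 4.17 and 5.24 at 132 h, 2.86 and 2.90 at 144 h, and 1.79 and 2.53 FPKM at 168 h. The peak at 84 h was separated from both neighbouring stages, with a rise of 2.74 ± 0.28 on the log2 scale and a fall by 2.78 ± 0.28 (adjusted p = 3.8e-09 and 3.3e-09, limma). Col1a1 did not share it, with 0.132 and 0.0650 FPKM at 84 h and no change by the test from 72 h (log2 0.41 ± 0.37, adjusted p = 0.51). Col1a1 then reached 1.91 and 1.27 FPKM at 120 h and 1.32 and 1.39 FPKM at 168 h. The Col1a1 to Col1a2 ratio of FPKM was 0.0153 and 0.00870 at 84 h and 0.737 and 0.550 at 168 h, and it stayed below 1 in all 61 libraries, the highest being 0.902. Type I collagen is known mainly as a trimer with more Col1a1 than Col1a2 chains.

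All 4 tested basement membrane collagens rose from 84 h to 96 h, and Col4a1 and Col4a2 had their highest mean at 120 h. Col4a1, the most abundant collagen mRNA by its highest stage mean, had 17.5 and 14.7 FPKM at 72 h, 21.1 and 21.2 at 84 h, 37.9 and 58.5 at 96 h, 46.3 and 46.2 at 108 h, 73.2 and 69.0 at 120 h, 53.7 and 60.5 at 132 h, 45.0 and 41.3 at 144 h, and 27.0 and 25.5 FPKM at 168 h. Col4a2, whose product joins that of Col4a1 in the same trimer, had 7.35 and 6.67 FPKM at 72 h, 9.77 and 9.57 at 84 h, 18.8 and 26.6 at 96 h, 29.0 and 30.8 at 108 h, 37.8 and 41.3 at 120 h, 37.5 and 38.1 at 132 h, 32.6 and 30.4 at 144 h, and 22.6 and 20.0 FPKM at 168 h. Both genes rose from 84 h to 96 h, by 1.15 ± 0.15 and 1.2 ± 0.14 on the log2 scale (adjusted p = 4.2e-07 and 5.3e-08), and fell from 144 h to 168 h, by 0.71 ± 0.15 and 0.56 ± 0.14 (adjusted p = 0.0010 and 0.0048). Their levels had a Pearson correlation of 0.94 across the 16 libraries, which share the time axis. These genes lie head to head on chromosome 8 (Col4a1 at 11198423 to 11312826 on the minus strand, Col4a2 at 11312805 to 11449287 on the plus strand, mm10) and overlap by 22 bases at their starts. The pair did not keep a fixed ratio. Col4a1 exceeded Col4a2 by 2.39 and 2.21 times at 72 h, by 1.5 and 1.6 times at 108 h and by 1.19 and 1.28 times at 168 h, with no overlap between these stages. In between, it was 1.94 and 1.67 at 120 h, above both libraries of 108 h. In the wt libraries outside the time course it was 1.79 and 1.96 at 144 h, against 1.38 and 1.36 in the time course at that stage, so the series differed in this ratio there.

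Col4a5 and Col4a6, which encode minor type IV chains on the X chromosome, rose together at 96 h and then diverged. Col4a5 had 0.902 and 1.06 FPKM at 72 h, 1.56 and 1.39 at 84 h, 6.48 and 3.69 at 96 h, 3.95 and 3.41 at 108 h, 3.36 and 4.44 at 120 h, 4.15 and 4.11 at 132 h, 3.39 and 3.45 at 144 h, and 4.39 and 4.41 FPKM at 168 h. Col4a6 had 0.649 and 0.865 FPKM at 72 h, 0.849 and 0.668 at 84 h, 5.33 and 2.96 at 96 h, 2.85 and 2.44 at 108 h, 1.67 and 1.96 at 120 h, 1.65 and 1.27 at 132 h, 1.26 and 0.953 at 144 h, and 1.03 and 1.18 FPKM at 168 h. From 84 h to 96 h they rose by 1.67 ± 0.18 and 2.25 ± 0.20 on the log2 scale (adjusted p = 1.2e-08 and 1.0e-10). From 96 h to 168 h Col4a5 stayed near its level while Col4a6 declined, and the Col4a5 to Col4a6 ratio went from 1.22 and 1.25 at 96 h to 4.27 and 3.72 at 168 h. The other type IV chains were at or near 0, with Col4a3 listed at 0 and Col4a4 at no more than 0.103 FPKM in any library. The 200 bases upstream of each gene are shown because both lie between this divergent pair, whose starts are separated by 1308 bases. They are at chrX:141475185-141475384 (Col4a5, plus strand) and chrX:141474077-141474276 (Col4a6, minus strand, printed as its own strand reads), in GRCm38.p6, with motif letters in capitals as above.
Col4a5: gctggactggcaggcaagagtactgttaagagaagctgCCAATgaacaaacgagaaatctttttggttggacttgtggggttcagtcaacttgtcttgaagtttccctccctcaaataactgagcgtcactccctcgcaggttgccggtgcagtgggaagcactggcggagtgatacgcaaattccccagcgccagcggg
Col4a6: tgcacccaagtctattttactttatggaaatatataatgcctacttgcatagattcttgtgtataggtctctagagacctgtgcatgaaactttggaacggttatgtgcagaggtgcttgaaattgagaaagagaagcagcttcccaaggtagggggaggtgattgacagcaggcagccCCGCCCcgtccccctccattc
Both stretches end just before the gene start of the expression table, which for Col4a5 lies 34 bases upstream of the RefSeq start. Col4a5 held the CCAAT box, 162 bases upstream of that table start, and Col4a6 held the GC box on the opposite strand, 21 bases upstream.

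**Figure D2:**
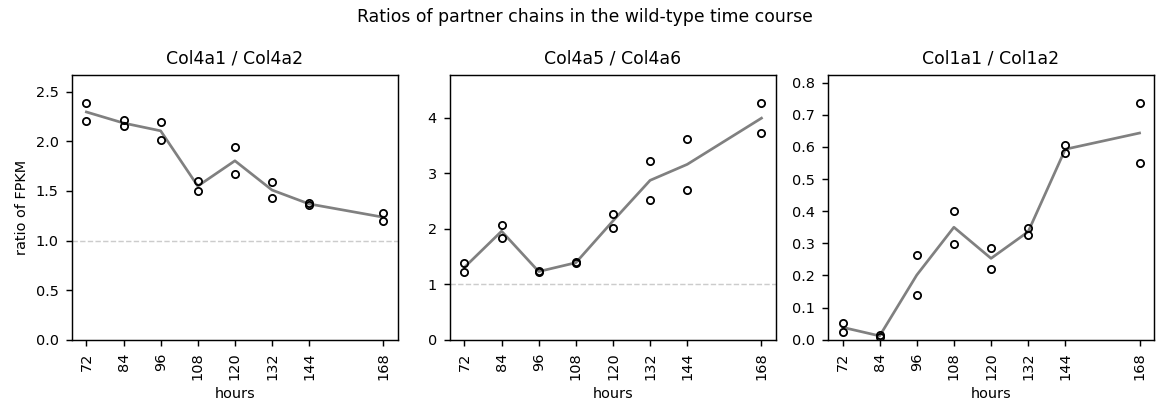
Ratio of FPKM values of chains that can join the same trimer in the 16 wild-type time-course libraries, by hours after aggregation. Circles are libraries and lines join the stage means. Col4a1 to Col4a2 falls from 2.39 and 2.21 at 72 h to 1.19 and 1.28 at 168 h, Col4a5 to Col4a6 rises to 3.72 and 4.27, and Col1a1 to Col1a2 starts near 0.

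Col18a1, a multiplexin of basement membranes whose C-terminal part is endostatin, was the only collagen already above 30 FPKM at 72 h. Its levels were 39.6 and 48.4 FPKM at 72 h, 33.8 and 32.7 at 84 h, 41.9 and 31.8 at 96 h, 44.8 and 49.7 at 108 h, 64.2 and 70.1 at 120 h, 69.2 and 61.5 at 132 h, 62.5 and 64.9 at 144 h, and 66.6 and 61.3 FPKM at 168 h. It rose from 96 h to 120 h (log2 0.88 ± 0.12, adjusted p = 7.6e-07) and held this level afterwards. Col18a1 overlaps Slc19a1 on the opposite strand, so part of its value may be uncertain. Col15a1, the other multiplexin, had 0.0297 and 0.0358 FPKM at 72 h and 1.28 and 1.13 FPKM at 144 h.

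Col26a1 at 120 h reached the range of Col4a1 and Col18a1 at that stage, and the libraries of these 3 genes overlapped there. It encodes an atypical secreted collagen known from testis and ovary. Its levels were 1.28 and 0.602 FPKM at 72 h, 0.911 and 1.38 at 84 h, 5.21 and 26.2 at 96 h, 27.0 and 30.9 at 108 h, 81.8 and 59.1 at 120 h, 55.2 and 62.7 at 132 h, 55.1 and 56.2 at 144 h, and 25.5 and 27.8 FPKM at 168 h. At 96 h replicate 2 was well above replicate 1, as it was for Col23a1 and Col4a1. In replicate 2 the extraembryonic endoderm markers summed to 30.2 FPKM and the cardiac markers to 18.3 FPKM, against 4.85 and 0.737 FPKM in replicate 1, and their part in the result was not tested. The log2 change of Col26a1 from 72 h to 168 h was 4.76 ± 0.41 (adjusted p = 6.8e-12).

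The transmembrane collagens had their own, earlier course. Col13a1, a collagen of cell adhesion sites and the neuromuscular junction, had 3.02 and 1.58 FPKM at 72 h, 13.3 and 16.6 at 84 h, 10.2 and 15.4 at 96 h, 7.10 and 9.82 at 108 h, 5.44 and 9.66 at 120 h, 4.78 and 3.72 at 132 h, 2.21 and 2.75 at 144 h, and 0.726 and 0.503 FPKM at 168 h. It rose by 2.71 ± 0.25 on the log2 scale from 72 h to 84 h (adjusted p = 2.9e-10) and was lower at 168 h than at 72 h (log2 -1.70 ± 0.25, adjusted p = 4.9e-07). Col23a1 had 0.451 and 0.439 FPKM at 72 h, 1.40 and 1.31 at 84 h, 2.98 and 21.2 at 96 h, 8.71 and 9.14 at 108 h, 9.45 and 3.93 at 120 h, 2.29 and 3.32 at 132 h, 3.60 and 3.16 at 144 h, and 4.69 and 4.32 FPKM at 168 h. Col25a1, which is needed for muscle innervation, had its highest values at 96 h with 2.07 and 2.14 FPKM and 0.666 and 0.717 FPKM at 168 h.

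Among the FACITs, Col14a1, which binds decorin on fibrils, had 0.609 and 0.187 FPKM at 72 h, 0.348 and 0.374 at 84 h, 2.41 and 2.42 at 96 h, 1.36 and 1.37 at 108 h, 1.04 and 2.74 at 120 h, 4.70 and 5.00 at 132 h, 3.09 and 3.12 at 144 h, and 0.951 and 1.2 FPKM at 168 h. It was highest at 132 h, above every other stage. The tested type IX chains of cartilage, Col9a1 and Col9a2, had their highest stage means at 168 h. Col9a1 rose from 132 h to 144 h by 2.55 ± 0.32 on the log2 scale (0.3 and 0.467 against 2.66 and 2.73 FPKM, adjusted p = 1.9e-06, limma). Col9a2 rose from 108 h to 120 h by 1.2 ± 0.29 (adjusted p = 0.0053). In the wt libraries outside the time course, Col9a1 had an earlier level of 0.606 to 1.17 FPKM at 96 h and 0.232 to 0.554 FPKM at 120 h. Col8a1, a short-chain network collagen, was listed at 0 in all 8 libraries up to 108 h and had 1.18 and 0.875 FPKM at 168 h. The tested beaded filament chains stayed low, with no value above 1.2 FPKM for Col6a1, Col6a2 or Col6a3 in the time course.

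**Figure D3:**
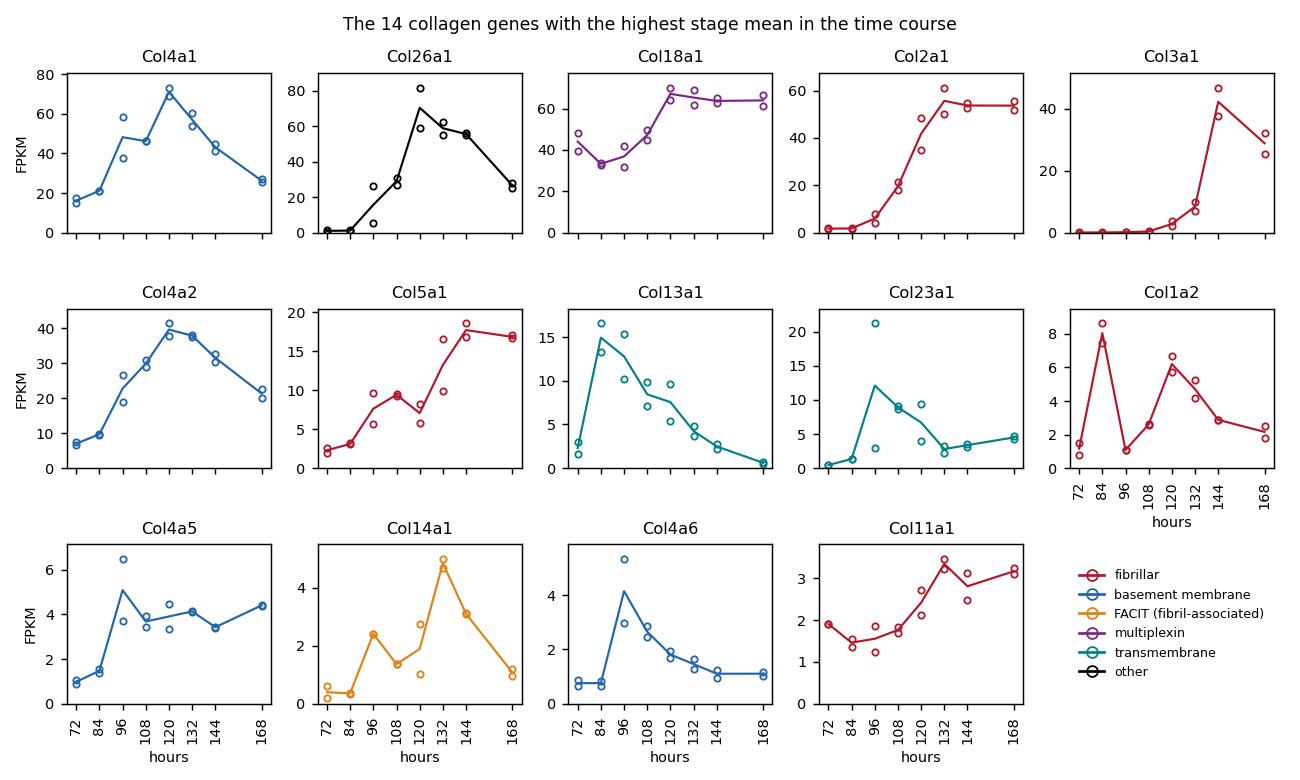
mRNA levels (FPKM, linear axes from 0) of the 14 collagens with the highest stage mean against hours after aggregation in the wild-type time course. Circles are single libraries, lines join the means of the 2 libraries of a stage, and colours give the class. Col13a1 and Col1a2 peak at 84 h, Col4a1, Col4a2 and Col26a1 at 120 h, and Col3a1 at 144 h.

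Of the 30 tested collagens, 10 rose and 3 fell from 72 h to 84 h, against 13% and 9.02% of all genes tested (22% in either direction). From 84 h to 96 h, 14 rose and 2 fell (10.5% and 15.4%, together 25.9%), among them all 4 tested basement membrane chains, which rose. In the next step, to 108 h, 7 rose and 3 fell (6.74% and 7.14%, together 13.9%). From 108 h to 120 h, 12 rose and 0 fell (7.56% and 3.83%, together 11.4%), and 5 of them were the fibrillar chains Col3a1, Col11a2, Col1a2, Col2a1 and Col11a1. Between 120 h and 132 h the numbers were 3 and 2 (2.67% and 2.2%, together 4.87%), and between 132 h and 144 h they were 6 and 5 (5.08% and 5.04%, together 10.1%). From 144 h to 168 h, 2 rose and 4 fell (7.75% and 7.29%, together 15%). None of the 10 fibrillar chains was called in this last step, while Col4a1 and Col4a2 fell. With the spread taken from the 4 libraries compared alone, the counts in either direction ranged from 0 to 4, so they rest on the spread pooled over all libraries.

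Genes that act on collagens were followed in 5 lists, of which the part tested is given. Of 19 genes for synthesis, folding and modification, 8 rose from 72 h to 168 h and 3 fell (median log2 change 0.18), against 27.7% and 25.7% of all genes tested. Serpinh1, the collagen chaperone HSP47, went from 103.5 ± 3.61 to 201 ± 6.76 FPKM (SD, n = 2, log2 0.96 ± 0.10, adjusted p = 2.8e-10), with 282 ± 21.6 FPKM at 120 h. The largest rises were in the prolyl 4-hydroxylase subunits P4ha3 (log2 3.13 ± 0.40), P4ha2 (1.81 ± 0.17) and P4ha1 (1.77 ± 0.20), which stabilise the triple helix, and the falls were in Mia3, Fkbp10 and Crtap (log2 -0.65, -0.55 and -0.38). Of 14 tested genes for processing, cross-linking and turnover, 8 rose and 4 fell (median 0.80). Loxl2, a lysyl oxidase that cross-links type IV collagen, rose by 4.17 ± 0.41 on the log2 scale, from 1.2 ± 0.34 to 22.9 ± 0.76 FPKM, and Bmp1 and Pcolce, the procollagen C-proteinase and its enhancer, rose by 2.76 ± 0.11 and 2.68 ± 0.29. Pcolce2, Tll1 and Adamts3 fell (log2 -2.38, -1.71 and -1.17).

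Of 11 tested basement membrane partners, 6 rose and 4 fell (median 0.59), again beside 27.7% and 25.7% of all genes. Laminin chains went in opposite directions: Lama1 rose from 1.53 ± 0.56 to 9.20 ± 0.36 FPKM (log2 2.55 ± 0.17, adjusted p = 2.0e-14), Lama4 rose (2.86 ± 0.54), and Lama5 and Lamb1 fell (log2 -3.04 ± 0.27 and -1.97 ± 0.10), as did Lamc1 slightly (log2 -0.33 ± 0.09). Sparc, a collagen-binding matricellular protein, and Nid1, which links laminin to type IV collagen, rose by 2.23 ± 0.44 and 1.70 ± 0.27, whereas Nid2 fell (log2 -0.58 ± 0.13). Of 4 tested collagen receptors, Ddr2, Ddr1 and Itgb1 rose (log2 2.06, 1.58 and 0.21), while Itga1, the integrin subunit for type IV collagen, fell (log2 -3.12 ± 0.22, from 3.04 to 0.260 FPKM). Of 11 tested fibril partners, 9 rose and 0 fell (median 2.83). Fbn2, a fibrillin of embryonic microfibrils, rose from 0.952 ± 0.45 to 27.3 ± 1.95 FPKM (log2 4.77 ± 0.28), and the small leucine-rich proteoglycans Dcn and Lum had 2.77 ± 0.63 and 1.89 ± 0.92 FPKM at 168 h, against 0.103 ± 0.10 FPKM and a listed 0 at 72 h. All genes tested had a median change of 0, and the shares of 27.7% higher and 25.7% lower are the background of all 5 lists. As for the collagens, a gene that passed the filter only through its level at 168 h had to rise, so these counts describe the lists.

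The step from 96 h to 120 h was also measured in the 4 and 4 wt libraries outside the time course. There 15 of the 30 tested collagens rose and 6 fell, against 18.8% and 14% of all genes tested (32.8% in either direction), and in the time course 14 rose and 3 fell (12% and 8.79%, together 20.8%). In these wt libraries Col2a1 had 3.59, 4.30, 4.47 and 3.56 FPKM at 96 h and 33.6, 33.9, 30.7 and 37.7 FPKM at 120 h (log2 3.07 ± 0.15, adjusted p = 2.6e-17). Col4a2 had 13.0, 12.7, 10.7 and 14 FPKM at 96 h and 27.1, 26.9, 27.2 and 27.7 FPKM at 120 h (log2 1.11 ± 0.10, adjusted p = 5.7e-11), and Col18a1 went from 17.7, 19.2, 26.1 and 25.4 to 47.0, 46.1, 52.1 and 53.2 FPKM (log2 1.18 ± 0.08). Col26a1 rose by 3.31 ± 0.29, Col3a1 by 3.03 ± 0.31, Col1a2 by 2.12 ± 0.20 and Col1a1 by 1.96 ± 0.26 on the log2 scale. Col24a1, Col9a1, Col6a1, Col6a2, Col4a6 and Col13a1 fell (log2 -1.25, -1.15, -0.95, -0.91, -0.84 and -0.60). With replicate number as a block, 6 of the 21 calls were lost by limma. These were Col12a1, Col6a1, Col13a1, Col9a1, Col14a1 and Col5a2 (adjusted p = 0.063, 0.065, 0.11, 0.12, 0.13 and 0.15). Col16a1, Col5a1 and Col8a1 were gained (adjusted p = 0.031, 0.035 and 0.044). By limma 0 collagens differed between the series in this change, 6 had an unadjusted p below 0.05, and 0.38% of all genes tested passed the threshold. At 120 h Col3a1 had 5.72 FPKM in wt replicate 4 and 1.69 to 1.87 FPKM in replicates 1 to 3, which belong to the other library set, and Col5a2 had 0.0521, 0.0446, 1.33 and 1.58 FPKM in replicates 1 to 4.

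Across the 17 comparisons of mutants with wt, collagens were called in 92 of 510 tests, and 168 tests had an unadjusted p below 0.05. In Del(CBS1), Del(CBS2), Del(CBS1-2) and Del(d1-d4), 0 to 3 of 30 collagens were called, against 0.246% to 2.4% of all genes tested, and in the other 9 groups 3 to 15 were, against 10.9% to 37.9%. At 96 h, Del(CBS1) had Col2a1, Col4a5 and Col18a1 higher and 0 collagens lower (0.38% and 0.357% of all genes tested, together 0.737%), and Del(CBS1-2) had Col2a1 and Col18a1 higher and 0 lower (1.3% and 1.11%, together 2.4%). Col2a1 had 6.85 and 8.08 FPKM in Del(CBS1) and 7.71 and 7.48 in Del(CBS1-2), against 3.59, 4.30 and 4.47 in the wt libraries, which these comparisons share. Col18a1 had 29.8 and 29.9 FPKM in Del(CBS1) and 31.4 and 33.4 in Del(CBS1-2), against 17.7, 19.2 and 26.1. In these libraries the extraembryonic endoderm markers summed to 8.54 to 10.3 FPKM in Del(CBS1) and 8.11 to 11.4 FPKM in Del(CBS1-2), against 4.38 to 7.05 FPKM in wt. The sclerotome and cartilage genes summed to 4.15 to 4.48 FPKM in Del(CBS1), above the 1.91 to 3.81 FPKM of wt, and their part and that of the endoderm markers in the result was not tested. The Col18a1 effect in Del(CBS1-2) was smaller at 120 h than at 96 h (log2 difference -0.69 ± 0.15, adjusted p = 0.0497). At 120 h neither gene was called in these mutants. Del(CBS1) then had Col8a1 higher (1.3% of all genes tested were higher, 0.842% lower and 2.14% either), at 0.0451 and 0.107 FPKM against 0.0158 to 0.0249 FPKM, and Del(CBS1-2) had Col11a1 lower (0.801%, 0.994% and 1.8%), at 1.52 and 1.32 FPKM against 2.01 to 2.33 FPKM. Sclerotome and cartilage genes were lower in these Del(CBS1-2) libraries too (11.6 to 13.7 against 18.4 to 19.7 FPKM). Del(d1-d4) had Col11a1 higher at 96 h (0.409%, 0.521% and 0.93%), with 1.67 and 1.56 FPKM against 0.961 to 1.162 FPKM, and the same marker genes were higher there (4.46 to 4.85 against 1.91 to 3.81 FPKM). Their part in either result was not tested. By limma it had 0 collagens called at 120 h (0.415%, 1.3% and 1.72%), with 4 at an unadjusted p below 0.05. Del(CBS2) had 0 called at 96 h (0.193%, 0.123% and 0.316%) and at 120 h (0.164%, 0.0819% and 0.246%), with 5 and 3 at an unadjusted p below 0.05. Of all 92 calls, 10 held under every alternative setting tried, and 21 held when the spread was taken from the groups compared alone. The 10 were Col5a2, Col4a1, Col4a2, Col4a6, Col6a3, Col25a1 and Col8a1 in Del(CBS1-5) at 144 h, Col1a1 and Col6a3 in Del(CBS1-5) at 96 h, and Col3a1 in Del(sub-TAD1) at 120 h.

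**Figure D4:**
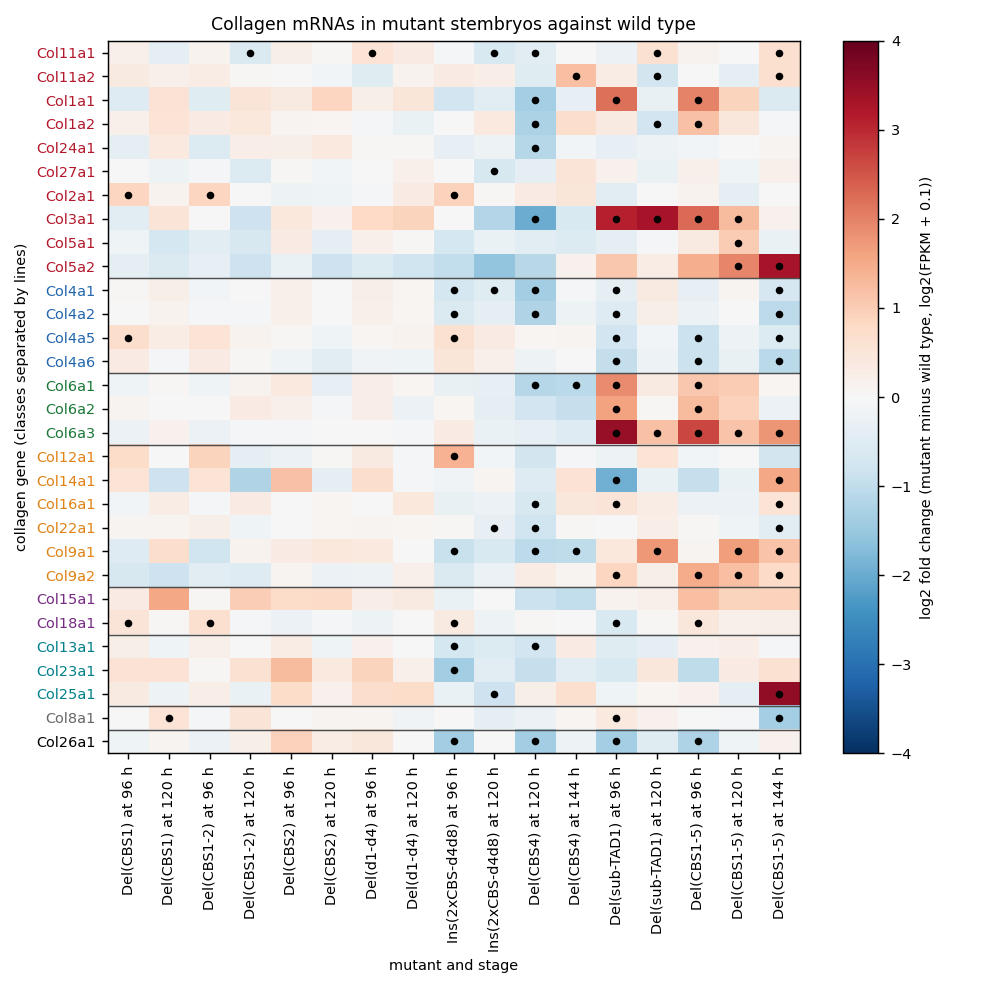
log2 fold change of the 30 tested collagens (rows, by class) in the 17 mutant groups (columns) against the wt libraries of the same stage and library set. Red is higher and blue lower in the mutant, and black dots mark an adjusted p below 0.05. The 4 mutants on the left have 0 to 3 dots a column, while Col6a3, Col3a1 and Col1a1 are red with a dot at 96 h in Del(sub-TAD1) and Del(CBS1-5), Col3a1 is so at 120 h in Del(sub-TAD1), and Col5a2 and Col25a1 at 144 h in Del(CBS1-5).

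The largest log2 difference in the 510 tests was in Del(CBS1-5) at 144 h, where 9 of 30 collagens were higher and 6 lower, against 23.8% and 14.1% of all genes tested (37.9% in either direction). Col25a1 had 10.2 and 10.6 FPKM, against 1.21 and 1.18 FPKM in the wt libraries of that stage and 0.479 and 0.597 FPKM in the time course, with no overlap. The difference was 11.6-fold (log2 3.53 ± 0.25, adjusted p = 5.8e-13). At 120 h Col25a1 was not called in this line, and its log2 effects at the later and the earlier stage differed by 3.93 ± 0.37 (adjusted p = 1.2e-09). The upstream stretch of Col25a1, chr3:130180645-130180844 on the plus strand (GRCm38.p6, RefSeq), is shown for this gene, with the same motifs in capitals.
Col25a1: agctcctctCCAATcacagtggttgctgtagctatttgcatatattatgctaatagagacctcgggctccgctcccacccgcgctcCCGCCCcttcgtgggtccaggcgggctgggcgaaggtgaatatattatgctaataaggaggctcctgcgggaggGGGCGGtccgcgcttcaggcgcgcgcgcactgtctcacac
It held the CCAAT box 191 bases upstream of the RefSeq start, and the GC box at 40 bases on the plus and 114 bases on the minus strand.

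All 4 tested basement membrane chains were lower in Del(CBS1-5) at 144 h. Col4a1 had 26.1 and 29.6 FPKM, against 45.4, 46.1, 45.0 and 41.3 FPKM in wt (log2 -0.67 ± 0.13, adjusted p = 0.00010). Col4a2 had 12.6 and 13.9 FPKM, against 25.4, 23.5, 32.6 and 30.4 FPKM (log2 -1.06 ± 0.12, adjusted p = 2.1e-08). Col4a6 had 0.496 and 0.652 FPKM, against 1.42, 1.73, 1.26 and 0.953 FPKM (log2 -1.08 ± 0.17, adjusted p = 5.3e-06), and Col4a5 was lower by less (log2 -0.54 ± 0.16, adjusted p = 0.0062). None of these values overlapped with wt. Col8a1 was lower as well, with 0.128 and 0.138 FPKM against 0.732, 0.629, 0.415 and 0.309 FPKM (log2 -1.36 ± 0.14, adjusted p = 3.2e-09). Col22a1, a FACIT of tissue junctions, had 0.865 and 1.1 FPKM against 1.61, 1.79, 1.21 and 1.05 FPKM and overlapped (log2 -0.47 ± 0.10, adjusted p = 0.00022).

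Several fibril chains were higher in the same libraries. Col5a2 had 3.04 and 2.90 FPKM, against 0.134, 0.173, 0.326 and 0.247 FPKM (log2 3.30 ± 0.51, adjusted p = 4.5e-06). It was tested only because this line is high at 120 h and 144 h, and without the filter it was called as well (adjusted p = 8.3e-06). Col6a3, a type VI chain, had 0.755 and 0.833 FPKM, against 0.165, 0.173, 0.190 and 0.120 FPKM (log2 1.78 ± 0.36, adjusted p = 0.00016), and Col11a1 had 5.16 and 5.40 FPKM, against 3.77, 4.13, 3.14 and 2.49 FPKM (log2 0.65 ± 0.11, adjusted p = 1.8e-05). Col9a1, Col9a2, Col14a1, Col16a1 and Col11a2 were also higher (log2 0.55 to 1.54). Of these, Col11a2 turned to the opposite sign against the wt libraries outside the time course (log2 -0.20, adjusted p = 0.69), and the call of Col16a1 was lost there (log2 0.16, adjusted p = 0.71). The calls of Col11a1, Col9a1 and Col9a2 were lost against those wt libraries as well. Col3a1 was not called, with 53.5 and 57.7 FPKM against 37.7 to 62.5 FPKM. These libraries differed from wt in other ways. The pluripotency genes summed to 776 and 861 FPKM, against 5.59 to 106 FPKM in wt, and the sclerotome and cartilage genes to 31.2 and 33.4 FPKM, against 50.9 to 73.9 FPKM. Matched to the wt time course on 1000 genes outside Hox and collagens, they were closest to 138 h and 139 h, and the wt libraries to 144 h to 157 h. In the time course Col4a1 and Col4a2 were higher at 120 h and 132 h than at 144 h, and lower at 72 h and 84 h. The part of these differences in the result was not tested.

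At 96 h the lines derived from blastocysts shared part of their calls. In Del(sub-TAD1), 8 collagens were higher and 7 lower, against 12.3% and 8.75% of all genes tested (21% in either direction), and in Del(CBS1-5) 8 were higher and 3 lower, against 11.7% and 6.47% (18.1%). These comparisons used separate wt libraries. Called in the same direction in both were 9 collagens, 81.8% of those in Del(CBS1-5) and 60% of those in Del(sub-TAD1): Col1a1, Col3a1, Col6a1, Col6a2, Col6a3 and Col9a2 higher, and Col4a5, Col4a6 and Col26a1 lower. Of all genes tested, 1098 (6.42%) were called in the same direction in both, which is 35.4% of the calls in Del(CBS1-5) and 30.5% of those in Del(sub-TAD1). Whether the collagens differ from all genes in this was not tested. The lower call of Col26a1 in Del(sub-TAD1) depended on which libraries were used, with 4.61, 2.72 and 2.21 FPKM against 3.60, 5.21 and 26.2 FPKM (log2 -1.36, adjusted p = 0.0037). The groups overlapped, the highest value was that of time-course replicate 2 with its raised endoderm and cardiac markers, and the call was lost without replicate 2 of both groups (log2 -0.43, adjusted p = 0.39) and against the wt libraries outside the time course (log2 -0.27, adjusted p = 0.52). Of the wt libraries outside the time course at 96 h, replicates 1 to 3 belong to the library set that Del(sub-TAD1) does not. Col6a1, Col6a2 and Col6a3 encode type VI chains, which form the beaded filaments around cells, and the other 3 genes of this class were not tested. Col6a3 was tested only through Del(sub-TAD1) at 96 h and Col6a1 only through both lines at 96 h, so it is partly fixed by the filter that the tested chains were higher. Without the filter the Col6a3 calls held in both lines (adjusted p = 3.3e-09 and 1.4e-05) and the Col6a1 call in Del(sub-TAD1) alone (adjusted p = 0.00022, and 0.068 in Del(CBS1-5)).

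Col6a3 had 0.436, 2.32 and 2.46 FPKM in Del(sub-TAD1) at 96 h, against 0.0466, 0.0271 and 0.0261 FPKM in wt (log2 3.49 ± 0.34, adjusted p = 1.8e-09), and 0.739 and 0.721 FPKM in Del(CBS1-5), against 0.0274, 0.0231 and 0.0414 FPKM (log2 2.67 ± 0.38, adjusted p = 1.0e-05). Col6a1 had 0.886, 3.48 and 3.61 FPKM in Del(sub-TAD1), against 0.407, 0.581 and 0.658 FPKM (log2 1.88 ± 0.33, adjusted p = 0.00012). In Del(CBS1-5) it had 1.09 and 1.34 FPKM, against 0.697, 0.487 and 0.409 FPKM (log2 1.08 ± 0.37, adjusted p = 0.041), a call lost under 8 of 10 alternative settings. Col3a1 had 0.771, 2.98 and 3.41 FPKM in Del(sub-TAD1), against 0.254, 0.179 and 0.0514 FPKM (log2 3.10 ± 0.35, adjusted p = 6.9e-08), and 1.13 and 1.43 FPKM in Del(CBS1-5), against 0.120, 0.144 and 0.345 FPKM (log2 2.25 ± 0.40, adjusted p = 0.00019). Col1a1 had 0.460, 1.64 and 1.90 FPKM in Del(sub-TAD1), against 0.103, 0.153 and 0.281 FPKM (log2 2.21 ± 0.30, adjusted p = 2.3e-06), and 0.639 and 0.783 FPKM in Del(CBS1-5), against 0.112, 0.0796 and 0.121 FPKM (log2 1.99 ± 0.34, adjusted p = 0.00013). Replicate 1 of Del(sub-TAD1) was the lowest of its group for all 4 of these genes but above every wt library.

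Among the lower genes, Col4a6 had 2.68, 2.01 and 1.79 FPKM in Del(sub-TAD1) at 96 h, against 4.71, 5.33 and 2.96 FPKM (log2 -0.95 ± 0.16, adjusted p = 5.6e-05), and 1.72 and 1.88 FPKM in Del(CBS1-5), against 3.56, 3.64 and 2.80 FPKM (log2 -0.85 ± 0.18, adjusted p = 0.0012). Col18a1 had 21.0, 20.2 and 21.6 FPKM in Del(sub-TAD1), against 25.4, 41.9 and 31.8 FPKM (log2 -0.62 ± 0.09, adjusted p = 1.3e-05), but 28.7 and 27.9 FPKM in Del(CBS1-5), against 17.7, 19.2 and 26.1 FPKM (log2 0.45 ± 0.11, adjusted p = 0.0033). The lower call in Del(sub-TAD1) was lost against the wt libraries outside the time course (log2 -0.06, adjusted p = 0.68), where replicates 1 to 4 had 17.7, 19.2, 26.1 and 25.4 FPKM, and with the replicate block the sign turned (log2 0.016, adjusted p = 0.92). Of these wt libraries only replicate 4 belongs to the library set of Del(sub-TAD1) at 96 h, so these checks cross the sets. Col4a1 and Col4a2 were called lower in Del(sub-TAD1) with overlapping values, and against the wt libraries outside the time course their differences were of the opposite sign (log2 0.17 and 0.09, adjusted p = 0.25 and 0.55). In both lines the pluripotency genes summed to more than in wt (107 to 455 against 64.1 to 95.5 FPKM in Del(sub-TAD1), and 723 in both libraries against 49.2 to 333 FPKM in Del(CBS1-5)). The notochord list (Noto, Shh, Foxa2 and T) also summed to more (134 to 189 against 66.4 to 109 FPKM, and 129 and 133 against 79.6 to 125 FPKM). In the time course the sum of this list was highest at 72 h (mean 956 FPKM). Sclerotome and cartilage genes summed to 4.87 to 10.5 FPKM in Del(sub-TAD1), against 3.64 to 4.39 FPKM, and endothelium genes to 3.73 and 4 FPKM in Del(CBS1-5), against 1.13 to 1.56 FPKM. The closest ages were 91 h to 92 h and 90 h, against 92 h to 100 h in the wt libraries. Their part in the result was not tested.

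At 120 h Del(sub-TAD1) had 4 collagens higher and 2 lower (7.71% and 4.35% of all genes tested, 12.1% in either direction). Col3a1 had 19.5 and 16.8 FPKM, against 1.73, 1.87 and 1.69 FPKM in wt, a 9.80-fold difference (log2 3.29 ± 0.40, adjusted p = 6.1e-07), and wt replicate 4 of the other set had 5.72 FPKM. Col9a1 had 1.42 and 1.2 FPKM, against 0.232, 0.258 and 0.554 FPKM (log2 1.72 ± 0.29, adjusted p = 0.00012), and Col11a1 had 3.39 and 3.32 FPKM, against 2.01, 2.33 and 2.22 FPKM. Col6a3 was also higher, while Col1a2 and Col11a2, the latter a type XI chain like Col11a1, were lower. The calls of Col6a3, Col1a2 and Col11a2 were lost against the wt libraries outside the time course, which add replicate 4 of the other set. In the Del(sub-TAD1) libraries the sclerotome and cartilage genes summed to 56.7 and 61.7 FPKM, against 18.4 to 19.7 FPKM in wt. The closest age was 126 h in each, against 125 h to 126 h. The part of these differences in the result was not tested. The differences in Col1a1, Col6a2 and Col6a3 seen at 96 h were smaller at 120 h (log2 -2.51 ± 0.46, -1.56 ± 0.45 and -2.33 ± 0.51 between the stages, adjusted p = 0.00057, 0.026 and 0.0035), and at 120 h neither Col1a1 nor Col6a2 was called. Del(CBS1-5) at 120 h had 6 collagens higher and 0 lower (7.66% and 5.89%, together 13.5%), with Col9a1 at 1.30 and 1.23 FPKM, against 0.232, 0.258 and 0.554 FPKM (log2 1.68 ± 0.29, adjusted p = 0.00023). The others were Col3a1, Col5a1, Col5a2, Col9a2 and Col6a3, of which Col5a2 overlapped with wt. Pluripotency genes summed to 596 and 679 FPKM in these libraries, against 35.2 to 325 FPKM in wt, and endothelium genes to 10.5 and 12.6 FPKM, against 0.631 to 2.98 FPKM, and their part in the result was not tested.

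**Figure D5:**
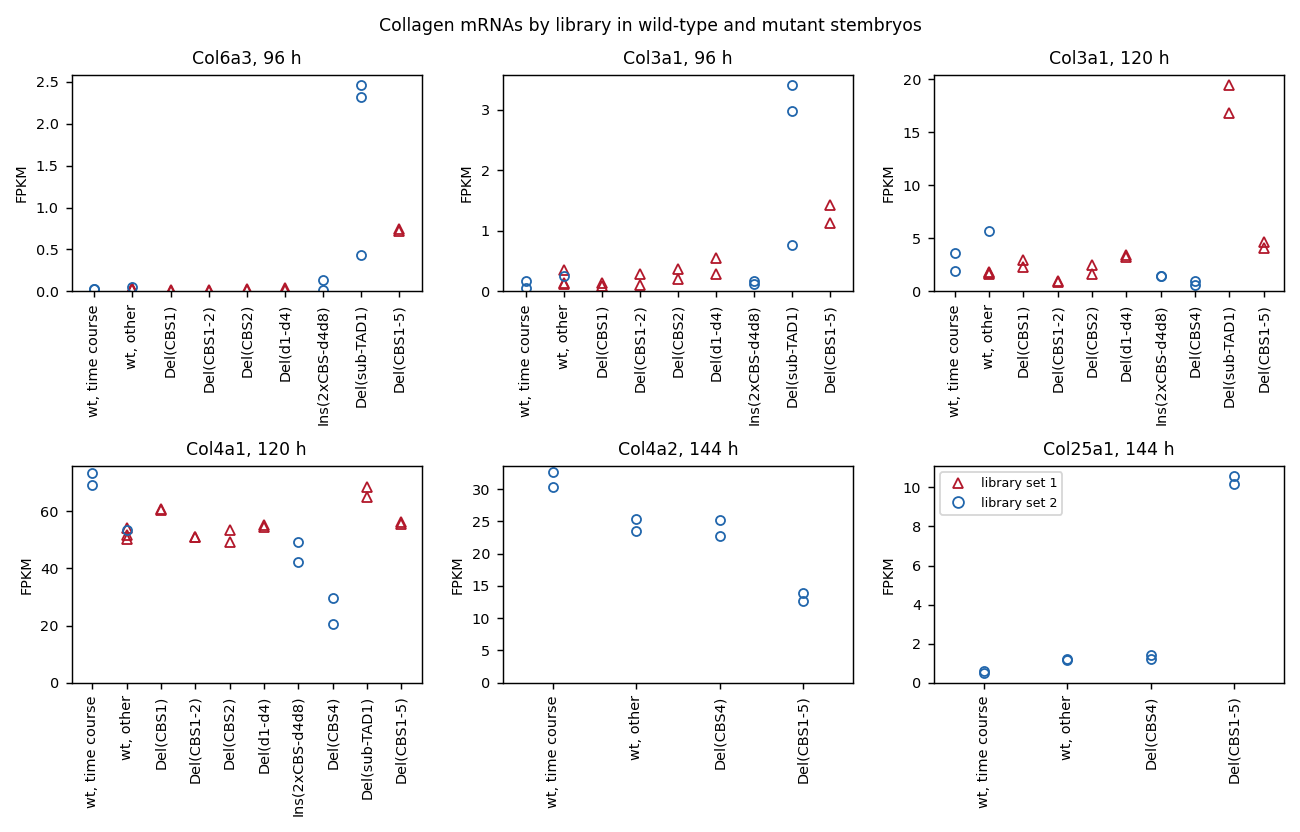
FPKM values by library for 5 collagens at the stages where mutants differed, with a column for each genotype, red triangles for library set 1 and blue circles for library set 2. Col6a3 and Col3a1 at 96 h are raised in Del(sub-TAD1) and Del(CBS1-5), Col3a1 at 120 h in Del(sub-TAD1), and Col25a1 at 144 h in Del(CBS1-5), while Col4a1 at 120 h is lowest in Del(CBS4) and Col4a2 at 144 h in Del(CBS1-5).

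In Del(CBS4) at 120 h, 13 collagens were lower and 0 higher, against 12.3% and 7.01% of all genes tested (19.3% in either direction). Col4a1 had 29.7 and 20.4 FPKM, against 53.4, 73.2 and 69.0 FPKM (log2 -1.39 ± 0.14, adjusted p = 8.7e-09), and Col4a2 had 17.7 and 12.9 FPKM, against 27.7, 37.8 and 41.3 FPKM (log2 -1.21 ± 0.13, adjusted p = 3.0e-08). Col22a1 had 0.590 and 0.688 FPKM, against 1.02, 1.33 and 1.19 FPKM (log2 -0.79 ± 0.10, adjusted p = 7.7e-07). Col24a1, a minor fibrillar chain, had 0.196 and 0.120 FPKM, against 0.225, 0.702 and 0.563 FPKM (log2 -1.13 ± 0.16, adjusted p = 3.8e-06). Col3a1 had 1.00 and 0.641 FPKM, against 5.72, 3.62 and 1.97 FPKM (log2 -1.97 ± 0.40, adjusted p = 0.00050). Col1a1, Col1a2, Col11a1, Col6a1, Col9a1, Col16a1, Col13a1 and Col26a1 were also lower (log2 -1.39 to -0.44), and values of all 13 genes lay below every wt library compared. Against the wt libraries outside the time course, where replicates 1 to 3 belong to the other library set, Col1a1, Col11a1, Col6a1, Col9a1 and Col13a1 were not called. With only the groups compared in the fit, all 13 calls were lost. These libraries had 5.71 and 7.61 FPKM of sclerotome and cartilage genes, against 20.7 to 34.8 FPKM in wt, 217 and 311 FPKM of somite genes, against 405 to 509 FPKM, and 54.5 and 32.7 FPKM of spinal cord genes, against 2.83 to 16 FPKM. The closest ages were 114 h and 128 h, against 120 h to 126 h. The part of this in the result was not tested. By 144 h, Col11a2 was called higher and Col6a1 and Col9a1 lower (5.84% and 5.04% of all genes tested, together 10.9%). The Col4a1 and Col4a2 effects at 144 h and 120 h differed by 1.36 ± 0.19 and 1.00 ± 0.18 on the log2 scale (adjusted p = 1.3e-05 and 0.00035).

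In Ins(2xCBS-d4d8), 4 collagens were higher and 6 lower at 96 h (8.21% and 9.64% of all genes tested, together 17.9%), and 5 were lower and 0 higher at 120 h (7.11% and 4.07%, together 11.2%). Col4a1 was lower at both stages, with 23.5 and 26.3 FPKM at 96 h, against 30.8, 37.9 and 58.5 FPKM (log2 -0.72 ± 0.14, adjusted p = 0.00050), and 49.2 and 42.4 FPKM at 120 h, against 53.4, 73.2 and 69.0 FPKM (log2 -0.50 ± 0.14, adjusted p = 0.017). Against the wt libraries outside the time course Col4a1 was not called at either stage (log2 -0.16 and -0.20, adjusted p = 0.41 and 0.29). Of those libraries, replicates 1 to 3 at each stage belong to the other library set. Col4a5 and Col2a1 were higher at 96 h, the latter with 9.03 and 9.41 FPKM, against 3.56, 7.83 and 4.02 FPKM (log2 0.92 ± 0.20, adjusted p = 0.0013). Col11a1 was lower at 120 h, with 1.65 and 1.83 FPKM, against 3.38, 2.13 and 2.71 FPKM (log2 -0.61 ± 0.12, adjusted p = 0.00097). The sclerotome and cartilage genes summed to less than in wt at both stages (2.25 to 2.38 against 3.64 to 4.39 FPKM at 96 h, and 12.7 to 15.9 against 20.7 to 34.8 FPKM at 120 h). The notochord list (Noto, Shh, Foxa2 and T) summed to more at 96 h (127 to 139 against 66.4 to 109 FPKM) and to less at 120 h (23.2 to 23.8 against 30.9 to 59.4 FPKM). In the time course the sum of this list was highest at 72 h, with a mean of 956 FPKM, and had a mean of 53.2 FPKM at 120 h. The part of both lists in the result was not tested.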

How the data were processed

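Per the labels and the study's methods, the authors trimmed paired stranded poly(A) reads with cutadapt 1.16, aligned them to mm10 with STAR 2.7.7a and computed the deposited FPKM values from uniquely mapped fragments with cufflinks 2.2.1, on genes merged from Ensembl annotation. FPKM holds no counts. Of low values, 73.2% to 98.1% came within 0.02 of whole fragments, which gave the depth. The study describes its replicates as independent biological samples, while the labels do not name separate cultures. Genes that overlap (Col18a1 with Slc19a1, Col9a3 with Tcfl5, Col10a1 with Nt5dc1, all on opposite strands) may share fragments. Col1a2, Col3a1, Col5a2, Col6a3, Col25a1 and Col26a1, among others, overlap further annotated genes on the same strand, and the same limit holds for them.

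Genes with a mean of at least 1 FPKM in a group were tested with limma 3.58.1 (R 4.3.3) on log2(FPKM + 0.1), with a coefficient per group and library set over all 61 libraries (31 residual degrees of freedom), and Benjamini-Hochberg adjustment over 17098 genes with a threshold of 0.05. Mutants were compared with wt libraries of their stage and set, time course included. Where these wt libraries came from both series, each series kept its own coefficient. A difference between the series then adds nothing to the SE or p, and a lone replicate 4 adds nothing to the spread. With the wt libraries of a stage and set as 1 group, 65 of the 92 calls were kept. Simulated data for Del(CBS1-5) at 144 h held 17098 genes, of which 100 were changed by 1 and 100 by 2 on the log2 scale. Of these, 65% and 81% were recovered, and 2.01% of calls were false. In the data 37.9% of genes were called in this comparison, so these rates need not hold for it or for the others. In the wt libraries at 96 h and 120 h outside the time course, same-numbered libraries deviated together (correlations 0.561 to 0.889 over 4 pairs). Replicate 4 belongs to the other library set at both stages, so these correlations alone cannot tell pairing by number from library set. Within replicates 1 to 3, which share a set, replicate 3 stood apart at both stages in the pluripotency sum. It had 333 FPKM at 96 h, against 49.2 and 52.1 FPKM in replicates 1 and 2. At 120 h it had 325 FPKM, against 36.2 and 35.2 FPKM. The genes, lists and library sets were chosen with earlier results of these data known. Values by library were given for the 14 collagens with the highest stage mean and the 15 with the lowest adjusted p in mutants. Of each list the 3 largest called changes in each direction were named, with Serpinh1, Sparc, Lama1, Lamb1, Lamc1 and Nid1. Other collagens given by library were chosen after their values were seen. Alternatives were another pseudocount, no filter, upper quartile scaling, other control libraries, a replicate block and leaving out replicates.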

Additional observations from a re-analysis of the deposited data

Results flagged for a closer look

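Of 60 tests for a library far from the others (30 collagens in the wt groups of 4 libraries at 96 h and 120 h), 5 were flagged, where chance flags about 1 in 20. In wt replicate 4 at 120 h, Col3a1 had 5.72 FPKM, against 1.685 to 1.866 FPKM in replicates 1 to 3, and Col4a5 had 4.421 FPKM, against 3.438 to 3.597 FPKM. In wt replicate 3 at 96 h, Col9a2 had 0.5163 FPKM, against 0.2068 to 0.2488 FPKM, Col15a1 had 0.02293 FPKM, against 0.07678 to 0.087 FPKM, and Col8a1 had 0.007398 FPKM, against a listed 0.

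The effect of a mutant differed between successive stages in 31 of 300 tests by limma (adjusted p below 0.05). In Del(CBS1-2) it was Col18a1 (log2 effect at 120 h minus that at 96 h -0.687, with 0.135% of all genes tested called). In Del(CBS1-5), 11 collagens differed between 144 h and 120 h (15.4% of all genes), where the stages belong to different library sets. The later effect was higher for Col25a1 (log2 difference 3.927), Col14a1 (1.798), Col11a2 (0.9903), Col16a1 (0.7971) and Col11a1 (0.6297), and lower for Col1a1 (-1.479), Col8a1 (-1.311), Col5a1 (-1.273), Col4a2 (-1.078), Col4a6 (-0.7759) and Col4a1 (-0.7755).

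In Del(CBS4), all 9 collagens that differed had the higher effect at 144 h (6.95% of all genes). They were Col1a2 (1.964), Col11a2 (1.686), Col4a1 (1.358), Col16a1 (1.11), Col13a1 (1.081), Col24a1 (1.017), Col4a2 (0.9997), Col27a1 (0.8663) and Col22a1 (0.8394). In Del(sub-TAD1), 10 differed between 120 h and 96 h (7.84% of all genes), again across library sets. The effect at 120 h was higher for Col9a1 (1.311), Col11a1 (0.8463), Col4a2 (0.7635), Col4a1 (0.7501) and Col18a1 (0.6595), and lower for Col1a1 (-2.509), Col6a3 (-2.331), Col6a2 (-1.558), Col1a2 (-1.142) and Col11a2 (-1.02).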

How the results depend on the processing

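Same-numbered libraries deviated together only among the wt libraries outside the time course. There replicate 4 also differed in library set at both stages, and replicate 3 in its pluripotency sum. A replicate block there gave 18 collagens called against 21. Elsewhere the numbers did not pair the libraries (1 of 28 pairs of stages correlated above 0.1, and 0 of 7, 8 and 2 mutant groups at 96, 120 and 144 h). There the block gave 5 collagens called from 72 h to 84 h against 13 without it, 3 to 108 h against 10, 3 to 120 h against 12, 0 to 132 h against 5, 4 to 144 h against 11 and 2 to 168 h against 6, and 11 against 17 from 96 h to 120 h. In mutants the block was fitted with all wt libraries outside the time course, and the counts became 3 for Del(CBS1-2) at 120 h, 1 for Del(CBS1) at 96 h, 0 for Del(CBS4) at 144 h and Del(d1-d4) at 96 h, 9 for Ins(2xCBS-d4d8) at 120 h, and 11 for Del(CBS1-5) and Del(sub-TAD1) at 120 h. Of the 92 calls in mutants it kept 64. With only the groups compared in the fit, which leaves few libraries for the spread, the counts were 1 collagen lower from 72 h to 168 h, 1, 4, 2, 0, 0, 0 and 2 in the successive steps, and 0 from 96 h to 120 h. In mutants the counts were 0 for Del(CBS1-2), Del(CBS1) and Ins(2xCBS-d4d8) at both stages, Del(d1-d4) at 96 h and Del(CBS4) at 120 h, 1 for Del(sub-TAD1) at 96 h and for Del(CBS1-5) at 120 h, 2 for Del(sub-TAD1) at 120 h and for Del(CBS1-5) at 96 h, and 8 for Del(CBS4) at 144 h. The cause of these changes was not tested beyond the smaller number of libraries.

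A pseudocount of 1 gave 4 calls for Del(CBS1-2) at 96 h, 5 for Del(CBS4) at 144 h and 0 for Del(CBS1) at 120 h. Without a filter the collagens lower at 168 h than at 72 h numbered 5, and Del(CBS1) at 120 h had 0. Upper quartile scaling gave 0 for the latter and 3 for Ins(2xCBS-d4d8) at 120 h. With all wt libraries outside the time course as controls, Del(CBS1-2) at 120 h had 2, Del(CBS1) at 120 h had 4 and Del(sub-TAD1) at 120 h had 3. At 96 h and 120 h these controls mix the library sets, with replicates 1 to 3 in 1 set and replicate 4 in the other. With the wt libraries of a stage and set as 1 group, an alternative chosen after seeing the data, Del(CBS1) at both stages, Del(CBS1-2) at 120 h and Del(d1-d4) at 96 h had 0, Ins(2xCBS-d4d8) had 6 at 96 h and 1 at 120 h. Of the 92 calls, a pseudocount of 1 kept 82, no filter 81, upper quartile scaling 86, the wt libraries outside the time course 61, and wt as 1 group 65. The direction turned for Col11a2 in Del(CBS1-5) at 144 h (-0.1967 with the block and with the wt libraries outside the time course), Col4a1 in Del(sub-TAD1) at 96 h (0.2201 and 0.1694), Col4a2 there (0.1436 and 0.0898), Col18a1 there with the block (0.016), Col4a2 in Ins(2xCBS-d4d8) at 96 h with the wt libraries outside the time course (0.0333) and Col13a1 there with the block (0.0089).

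Leaving out a replicate number from both groups compared left 1 library in most mutant groups, which was assumed to vary like the others. The counts then ranged from 6 to 8 for 72 h to 84 h, 5 to 8 to 108 h, 5 to 12 to 120 h, 1 to 8 to 132 h, 6 to 7 to 144 h and 3 to 4 to 168 h, with replicate 1 giving the lowest to 120 h and to 132 h and replicate 2 in the others. They ranged from 0 to 1 for Del(CBS1-2) at 120 h, 0 to 4 at 96 h, 1 to 7 for Del(CBS1-5) at 120 h, 4 to 14 at 96 h, 0 to 1 for Del(CBS1) at 120 h and at 96 h, 8 to 13 for Del(CBS4) at 120 h, 0 to 2 at 144 h, 0 to 2 for Del(d1-d4) at 96 h, 2 to 6 for Del(sub-TAD1) at 120 h, 8 to 17 at 96 h, 1 to 7 for Ins(2xCBS-d4d8) at 120 h and 3 to 11 at 96 h. Replicate 2 gave the lowest count in Del(sub-TAD1) and Ins(2xCBS-d4d8) at 96 h and in Del(CBS1-5) at 96 h, and replicate 1 in Del(sub-TAD1) at 120 h and Del(CBS4) at 144 h. In Del(CBS1-5), Ins(2xCBS-d4d8) and Del(CBS4) at 120 h the counts were equal without either replicate 1 or replicate 2 (1, 1 and 8). Without replicate 1 or 2, the change of Col4a5 from 96 h to 120 h in the wt libraries outside the time course turned sign (0.0585 and 0.0101, neither called, with a lowest value of -0.1713 without replicate 3). From 72 h to 168 h, the calls of Col18a1, Col13a1, Col1a2, Col14a1 and Col4a6 were lost in at least 1 setting, and those of the other 9 most abundant collagens in none. Low collagens are limited by depth, since a value such as 0.007398 FPKM stands for few fragments.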
